A study of Mus musculus with 23 samples.

Results

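The 9 genes described here encode ion transport proteins of the intestinal epithelium, namely Slc34a2, Slc20a1, Slc9a3, Slc26a3, Slc26a6, Cftr, Car4, Slc12a2 and Atp1b1. They were taken by symbol from a table of FPKM values (read fragments scaled by transcript length and library size) with 19215 entries, of which 17725 carry a symbol, and all 9 were among the 11337 genes that were tested because they averaged 1 FPKM or more. The list was selected on measured values in part, namely the low FPKM of Slc34a2 after A100-FMT in set 2, where A100-FMT is taken to have been set against Sa. For Slc34a2 every comparison that uses A100-FMT or Sa of set 2 is therefore given as a description with no test, and so is A100-FMT against Sa in set 2 for all 9 genes.

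Total RNA of the small intestine was sequenced in 23 libraries of ICR mice, which by the study's methods were males. All mice, the Sa group included, had a single injection of busulfan at 40 mg/kg, an alkylating chemotherapeutic that damages the intestinal mucosa. The Sa group was then dosed with saline. Fecal microbiota transplantation (FMT) groups received the pooled luminal contents of donor mice, which had been dosed with water (Con-FMT), with alginate oligosaccharides (AOS) at 10 mg/kg (A10-FMT) or with AOS at 100 mg/kg (A100-FMT). Since each donor group was 1 pool, all recipients of an FMT group shared their inoculum. The methods give 1 schedule, with busulfan at 3 weeks of age, daily FMT for 1 week and collection at 5 weeks of age. The sample names split the libraries into set 1 (11 libraries) and set 2 (12 libraries) by a code that is not explained, and whether both sets followed that schedule is not stated. Each of the 8 groups had 3 libraries except Sa of set 1, which had 2 (replicates 1 and 3). No group without busulfan was analysed here. The labels do not say whether each library is 1 mouse, so the p-values measure the spread between these samples.

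Epithelial cells of the small intestine absorb and secrete ions across an apical membrane that faces the lumen and a basolateral membrane that faces the blood. The sodium-potassium pump on the basolateral side keeps sodium low inside the cell, and that gradient drives sodium-coupled uptake of phosphate and the exchange of sodium for protons at the apical side. Chloride is taken up by apical anion exchangers, mainly in villus cells, and is secreted through apical channels, mainly in crypt cells.

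Read number per library is not known from FPKM values, and the values of a library summed to between 556466 and 667957. Sa replicate 3 of set 1, which had the highest sum, stood apart from the other libraries: the deviation of its genes from the median library rose with their GC content (Spearman's rho 0.69 across genes), whereas rho was between -0.221 and 0.22 in the others. Its title and its description also point to different columns of the table. The title's column was used, while the description's column had a rho of -0.087. Calls of the members against Sa of set 1 are also given without this library, and those between groups of set 1 with the description's column as well. The labelled tissue was checked against marker lists. All 10 enterocyte markers, such as Vil1, a protein of the microvilli, had a mean of at least 1 FPKM, as did all 6 goblet cell and all 5 Paneth cell markers. Of 7 smooth muscle markers 6 had a mean below 0.1 FPKM and their sum was at most 2.31 FPKM in any library, so the markers of the intestinal muscle layer were at or near 0. No marker was at 0 in all libraries. Leukocyte markers summed to at most 18.3 FPKM and pancreatic acinar markers to at most 2.62 FPKM.

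On the FPKM scale, which is per transcript length, the 9 genes differed widely in level. Atp1b1 was the highest with a mean of 527 FPKM over the 23 libraries. Car4 (115 FPKM), Slc9a3 (69.7 FPKM), Slc26a3 (60.05 FPKM), Slc12a2 (50.4 FPKM), Slc34a2 (36.7 FPKM) and Cftr (28.8 FPKM) followed. Slc20a1 (8.99 FPKM) and Slc26a6 (6.31 FPKM) were the lowest. In the reference annotation (GRCm38.p6, the assembly of which mm10 is another name) Slc34a2 lies on chromosome 5 at chr5:53049353-53071664, Slc20a1 at chr2:129198773-129211615, Slc9a3 at chr13:74086255-74169442, Slc26a3 at chr12:31433142-31473922, Slc26a6 at chr9:108854043-108913049, Cftr at chr6:18170687-18322770, Car4 at chr11:84957754-84966054, Slc12a2 at chr18:57878512-57946821 and Atp1b1 at chr1:164437099-164458355. The values are per gene, so exons, introns and isoforms were not separated. Atp1b1 shares 202 bases with Nme7 (mean 7.42 FPKM). Slc9a3 shares 9163 bases with the long noncoding RNA Gm41003, Cftr 929 bases with the pseudogene Gm15595 and Slc34a2 3 bases with Gm17182, whose levels were not used here. Whether the libraries kept the strand is not given in the sources used here.

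**Figure D1:**
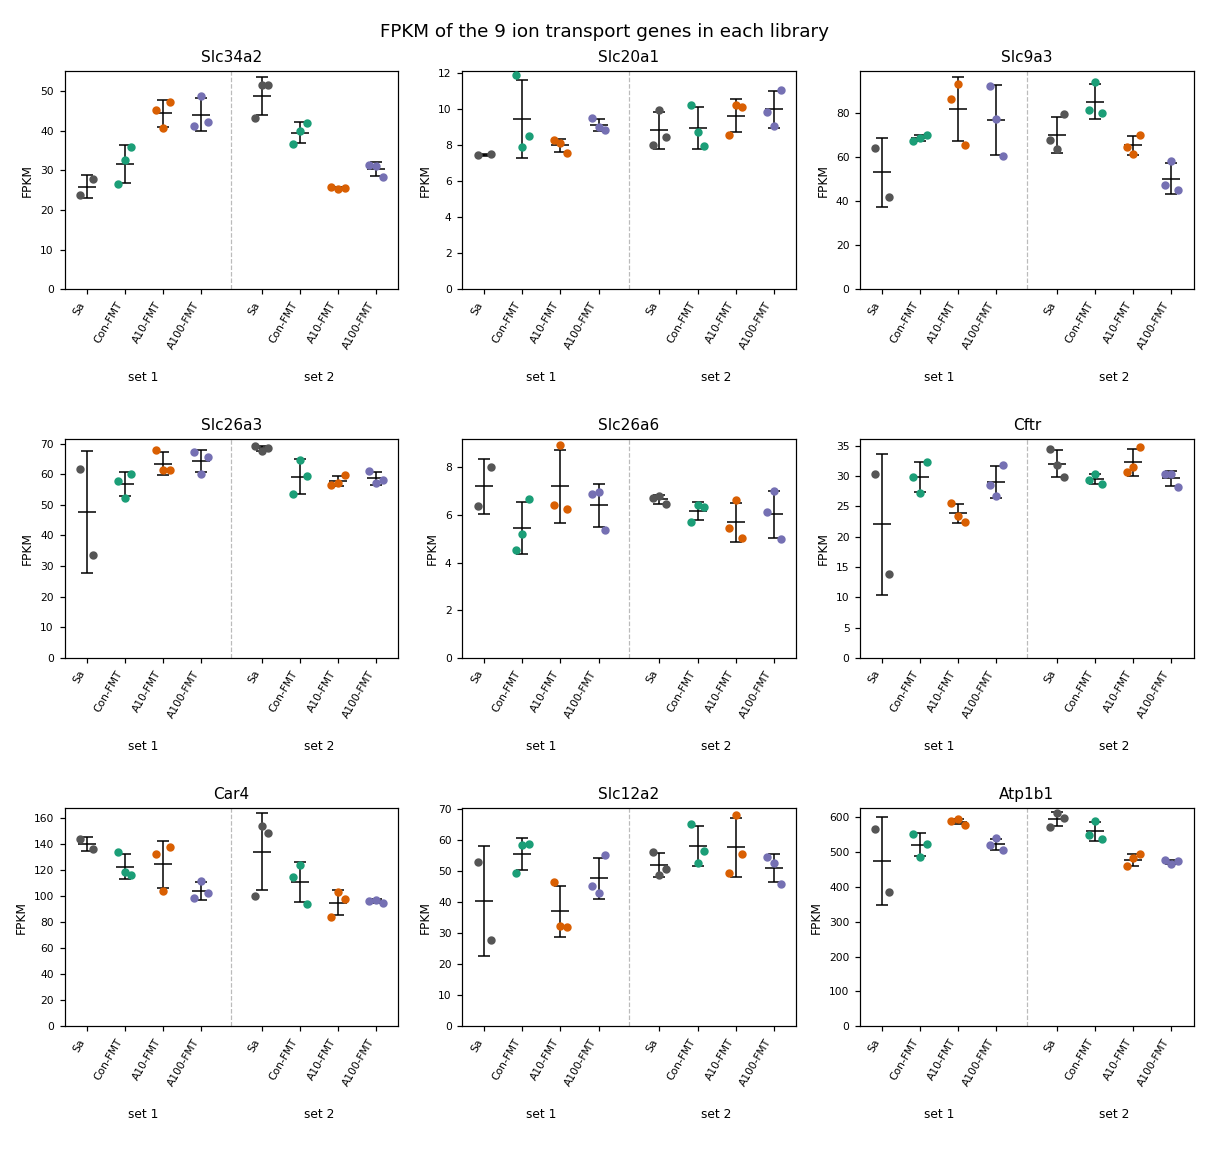
FPKM of each of the 9 genes (y axis, linear, from 0) in the 4 treatment groups of set 1 and set 2 (x axis). Points are libraries, the horizontal bar is the group mean and the error bar is 1 SD (n = 3, or n = 2 for Sa of set 1). Slc34a2 runs upward from Sa to A10-FMT in set 1 and downward in set 2, the latter as a description. The low point of Sa in set 1 for Cftr, Slc26a3, Slc12a2 and Atp1b1 is replicate 3.

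Slc34a2 (sodium-phosphate cotransporter NaPi-IIb) carries phosphate from the lumen into the enterocyte and is the main such transporter of the mouse ileum. Its transcript rose after A10-FMT relative to Sa and Con-FMT in set 1 and fell after A10-FMT relative to Con-FMT in set 2. In set 1 the Sa libraries had 23.84 and 27.93 FPKM, the Con-FMT libraries 26.53, 32.56 and 35.85 FPKM, the A10-FMT libraries 45.35, 40.7 and 47.22 FPKM, and the A100-FMT libraries 41.11, 48.81 and 42.28 FPKM. All A10-FMT and A100-FMT libraries were thus above all Sa and Con-FMT libraries, while Con-FMT overlapped Sa and A100-FMT overlapped A10-FMT. In set 2 the Sa libraries had 43.16, 51.51 and 51.6 FPKM, the Con-FMT libraries 36.69, 39.83 and 41.97 FPKM, the A10-FMT libraries 25.91, 25.25 and 25.68 FPKM, and the A100-FMT libraries 31.45, 31.22 and 28.3 FPKM. Here the ranges of the 4 groups did not overlap, and their order from low to high was A10-FMT, A100-FMT, Con-FMT and Sa. Sa was therefore the lowest group in set 1 and the highest in set 2.

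For each comparison limma was run on log2(FPKM + 1) with 1 mean per group and Benjamini-Hochberg adjustment over all 11337 genes, and a gene was called at an adjusted p below 0.05. On this scale Slc34a2 was 0.76 higher in A10-FMT than in Sa of set 1 (SE 0.11, 1.69-fold, limma adjusted p = 0.000584, higher in 3 of 3 libraries than in either Sa library). As a description, with the same 3 Sa libraries that were used in choosing the gene, the log2 change of A10-FMT against Sa in set 2 was -0.90 (0.537-fold), and the difference between these changes was -1.66. Fewer cells that carry a transcript and less of it per cell cannot be told apart in such bulk samples. Of all genes tested, 32% were called for A10-FMT against Sa in set 1, 0.423% in set 2 and 28.4% for the interaction, with the interaction being the change in set 2 minus that in set 1, so a call in set 1 was common among all genes. With Sa replicate 3 of set 1 left out, 8.12% of all genes were called for A10-FMT, 0.238% for A100-FMT and 0.00881% for Con-FMT against Sa in set 1.

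Against Con-FMT, A10-FMT was likewise higher in set 1 (Slc34a2 log2 change 0.48, SE 0.10, limma adjusted p = 0.00436; 16.7% of all genes called) and lower in set 2 (log2 change -0.60, SE 0.10, limma adjusted p = 0.0315; 0.379% called). This difference between the sets was -1.09 (95% confidence interval -1.39 to -0.79, limma adjusted p = 0.000187; 20.8% called). The call against Con-FMT in set 2 was lost in 7 of 32 alternatives, among them those without Con-FMT replicate 2 or 3 or A10-FMT replicate 2 or 3 of set 2, with adjusted p up to 0.25 and the log2 change between -0.66 and -0.56. Con-FMT itself differed from Sa by 0.27 in set 1, which did not pass (adjusted p = 0.0747), and, as a description, by -0.29 in set 2.

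A100-FMT of set 1 was 0.745 above Sa for Slc34a2 (SE 0.11, limma adjusted p = 0.00205; 35.2% of all genes called). It was 0.47 above Con-FMT (limma adjusted p = 0.0498; 0.406% called), but that call was lost in 26 of 32 alternatives, with adjusted p between 0.0234 and 0.321. A10-FMT and A100-FMT of set 1 differed by -0.01 (95% confidence interval -0.23 to 0.20). In set 2, where A100-FMT chose the gene, the log2 change against Sa was -0.66, against Con-FMT -0.37 and against A10-FMT 0.23, as a description.

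The comparisons of Slc34a2 with Sa of set 1 did not rest on Sa replicate 3. Without it the log2 change was 0.87 for A10-FMT (adjusted p = 0.00957) and 0.86 for A100-FMT (adjusted p = 0.0152). With the description's column, in which Slc34a2 had 17.47 FPKM, the changes were 1.08 and 1.07, and Con-FMT was called as well (log2 change 0.60, adjusted p = 0.0439). Both calls were lost where the model was fitted on the compared groups alone (adjusted p = 0.24 and 0.307), which leaves fewer libraries to estimate the spread.

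The same treatment gave different Slc34a2 levels in the sets. A10-FMT was 0.77 lower in set 2 than in set 1 (log2 change -0.77, limma adjusted p = 6.37e-05; 30.4% of all genes called). As a description, Sa was 0.89 higher in set 2 (0.997 without Sa replicate 3 of set 1 and 1.21 with the description's column). Of all genes, 38.1% were called between the Sa groups of the sets, but 0.0528% without Sa replicate 3 of set 1 and 4.63% with the description's column. Con-FMT differed by 0.32 (adjusted p = 0.668; 0.00882% called). What the set code stands for is not given, so anything else that differed between the sets cannot be told apart from it. Averaged over the sets, the changes of Slc34a2 were -0.07 for A10-FMT and -0.01 for Con-FMT against Sa, as a description, and -0.06 for A10-FMT against Con-FMT (95% confidence interval -0.21 to 0.09).

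**Figure D2:**
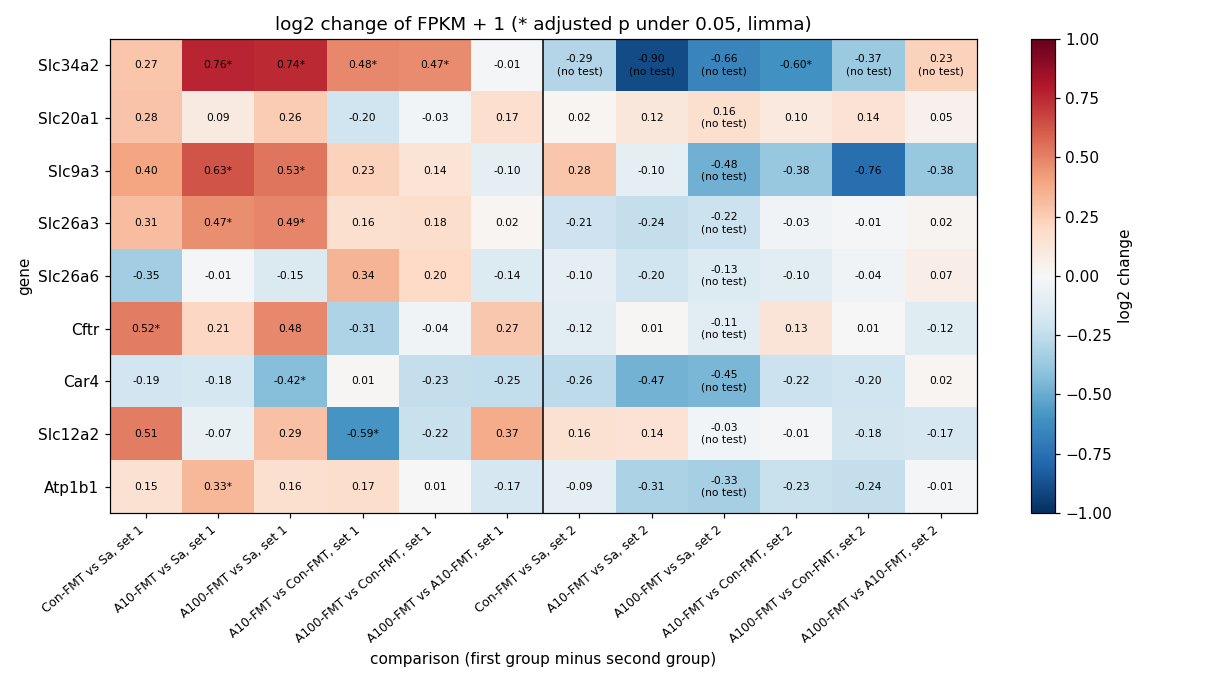
Log2 change of FPKM + 1 for each of the 9 genes (rows) in the 6 comparisons between groups of set 1 (left of the line) and of set 2 (right), first group minus second group. Colour gives the change, an asterisk marks a limma adjusted p below 0.05, and cells marked "no test" use values that chose the genes. The row of Slc34a2 runs from 0.76 for A10-FMT against Sa in set 1 to -0.90 in set 2, and most asterisks of the other genes stand in comparisons with Sa of set 1.

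Slc20a1 (PiT-1) is a sodium-phosphate cotransporter found in most tissues, and no change of it was called in any comparison. Its group means lay between 7.46 ± 0.042 FPKM in Sa of set 1 (SD, n = 2) and 9.98 ± 1.02 FPKM in A100-FMT of set 2 (SD, n = 3). Across the libraries it ran from 7.43 to 11.89 FPKM, and the highest value was Con-FMT replicate 1 of set 1. For A10-FMT against Sa, the log2 change of Slc20a1 was 0.09 in set 1 (95% confidence interval -0.19 to 0.37) and 0.12 in set 2 (95% confidence interval -0.13 to 0.37). Of the other genes of phosphate transport, Slc20a2 (PiT-2) is named here after its values were seen. For A10-FMT against Sa it went the opposite way to Slc34a2, whose change in set 2 is only a description. Slc20a2 fell after A10-FMT in set 1, from a mean of 9.95 FPKM in Sa to 7.24 FPKM (log2 change -0.41, limma adjusted p = 0.00309), and had 10.2 FPKM in A10-FMT and 8.69 FPKM in Sa of set 2 (log2 change 0.21, adjusted p = 0.232). The interaction for Slc20a2 was 0.62 (SE 0.12, limma adjusted p = 0.00143). When Sa replicate 3 of set 1 was left out, the change in set 1 was -0.28 and not called (adjusted p = 0.0752), while the interaction of 0.49 was (adjusted p = 0.00916). With the description's column the change of Slc20a2 in set 1 was -0.325 (limma adjusted p = 0.00336) and its interaction 0.53 (limma adjusted p = 0.000698). Slc34a3, a renal relative of Slc34a2 also named after its values were seen, had 2.23, 6.45 and 7.53 FPKM in Sa of set 2 and 2.57, 0.39 and 0.3 FPKM in A10-FMT, and its spread between replicates was too wide for a call (adjusted p = 0.213).

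The 250 bases upstream of the annotated start of Slc34a2 (chr5:53049103-53049352, plus strand) and of Atp1b1 (chr1:164458356-164458605, minus strand) are shown because these genes went together most closely in set 2 among the pairs with Slc34a2 (Pearson's r 0.911 over 12 libraries, 0.361 over the 11 of set 1). The r of set 2 is a description, since it uses the Sa and A100-FMT libraries that chose Slc34a2. Both windows are from RefSeq on GRCm38.p6, written 5′ to 3′ on the gene's strand, with matches to TATATA in capitals.
Slc34a2: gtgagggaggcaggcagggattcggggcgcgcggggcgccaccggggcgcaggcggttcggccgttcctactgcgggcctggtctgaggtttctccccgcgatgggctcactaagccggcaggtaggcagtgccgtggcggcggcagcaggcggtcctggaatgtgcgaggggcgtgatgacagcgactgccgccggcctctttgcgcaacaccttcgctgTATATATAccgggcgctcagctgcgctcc
Atp1b1: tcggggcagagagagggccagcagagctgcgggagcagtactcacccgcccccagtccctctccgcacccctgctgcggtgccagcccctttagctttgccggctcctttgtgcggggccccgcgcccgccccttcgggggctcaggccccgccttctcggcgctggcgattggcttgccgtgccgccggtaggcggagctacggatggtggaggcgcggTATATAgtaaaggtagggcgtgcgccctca
In Slc34a2 the capitals are overlapping matches at 29 to 24 and 27 to 22 bases before the start, and in Atp1b1 a single match lies at 30 to 25 bases before it. TATATA reads the same on both strands and was chosen after these windows were seen. It was in 5.2% of 32851 promoter windows of the reference table and also in that of Slc26a3. For every motif given here only the 250 bases before the start were searched. TATAAA, searched on both strands, was in 12.4% of the windows and among the members in Slc26a3 only. The CDX motif TTTATG, bound by intestinal homeobox factors, was in 10.8% of the windows, and none of them belonged to a member. The HNF4 motif CAAAGTC was in 3.8% of the windows, again in none of the members' windows. The motif of the zinc finger factors that bind AGATAA was in 10% of the windows and in none of the members' windows. Promoters were matched for 8 of the 9 genes.

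Slc9a3 (NHE3) takes up luminal sodium in exchange for protons at the brush border and carries most sodium absorption of the small intestine that is not coupled to a nutrient. It was called higher than Sa in set 1 after A10-FMT and A100-FMT. Sa of set 1 had 64.11 and 42.22 FPKM, Con-FMT 67.47 to 70.12 FPKM, A10-FMT 65.62 to 93.53 FPKM and A100-FMT 60.67 to 92.57 FPKM. The lower Sa value was replicate 3, and the A100-FMT range reached below Sa replicate 1. The log2 change was 0.63 for A10-FMT (SE 0.18, limma adjusted p = 0.0155) and 0.53 for A100-FMT (SE 0.18, limma adjusted p = 0.0328). Without Sa replicate 3 these were 0.33 (adjusted p = 0.31) and 0.24 (adjusted p = 0.657), and neither was called. With the description's column they were 0.52 (adjusted p = 0.0232) and 0.42 (adjusted p = 0.115). The A10-FMT call was also lost without A10-FMT replicate 2 (adjusted p = 0.0534), and the A100-FMT call without A100-FMT replicate 1 or 2 (adjusted p = 0.12 and 0.0641).

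In set 2 the Sa libraries of Slc9a3 had 63.91 to 79.59 FPKM, Con-FMT 80.2 to 94.44 FPKM, A10-FMT 61.41 to 70.06 FPKM and A100-FMT 45.06 to 58.38 FPKM. A100-FMT was below every other library of set 2, and its log2 change against Con-FMT was -0.76 (95% confidence interval -1.10 to -0.41), which did not pass (adjusted p = 0.112). No gene was called in that comparison (0%), while 1270 of 11337 had an unadjusted p below 0.05. A10-FMT against Sa of set 2 was -0.10 (95% confidence interval -0.44 to 0.24), and the interaction was -0.73 (limma adjusted p = 0.0328), a call lost in 8 of 32 alternatives, among them without Sa replicate 3 of set 1 (log2 value -0.43, adjusted p = 0.231), A10-FMT replicate 1 or 2 of either set or Sa replicate 3 of set 2.

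NHE3 is held and regulated at the brush border by PDZ scaffold proteins, and those encoded by Pdzk1 and Slc9a3r1 were measured. Pdzk1 had 38.8 and 27.1 FPKM in Sa and 54.74, 61.64 and 78.15 FPKM in A10-FMT of set 1, and 42.23, 50.05 and 52.19 FPKM in Sa and 29.11, 19.98 and 26.85 FPKM in A10-FMT of set 2. Every A10-FMT library was thus above Sa in set 1 and below it in set 2. The log2 change was 0.96 (SE 0.20, limma adjusted p = 0.00234) and -0.91 (SE 0.17, limma adjusted p = 0.0325), and the interaction was -1.88 (SE 0.26, limma adjusted p = 0.000309). With Sa replicate 3 of set 1 left out, the change in set 1 was 0.71 (adjusted p = 0.069) and the interaction -1.62 (adjusted p = 0.00215). With the description's column the change of Pdzk1 in set 1 was 1.16 (limma adjusted p = 0.00131) and its interaction -2.07 (limma adjusted p = 0.000151). Slc9a3r1 (NHERF1) averaged 245 FPKM in Sa and 344 FPKM in A10-FMT of set 1 (log2 change 0.48, limma adjusted p = 0.00421), and 270 FPKM and 202 FPKM in set 2 (log2 change -0.42, adjusted p = 0.0639). The interaction for Slc9a3r1 was -0.90 (limma adjusted p = 0.000583), and both calls were kept without Sa replicate 3 of set 1 (0.55, adjusted p = 0.0235, and -0.97, adjusted p = 0.00178). In set 1 Slc9a3r1 averaged 344 FPKM in A10-FMT and 254 FPKM in A100-FMT (log2 change -0.42 for A100-FMT against A10-FMT, limma adjusted p = 0.0203; 5.66% of all genes called). None of the 9 members was called in that comparison. None had an unadjusted p below 0.05, beside 2624 of all 11337 genes.

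Slc26a3 (DRA) takes up luminal chloride in exchange for bicarbonate and works in parallel with NHE3. Its level was even across the libraries apart from Sa replicate 3 of set 1, which had 33.63 FPKM while the other 22 libraries lay between 52.38 and 69.24 FPKM. A10-FMT and A100-FMT of set 1 were called higher than Sa (log2 change 0.47, limma adjusted p = 0.0263, and 0.49, limma adjusted p = 0.023). Without replicate 3 the changes were 0.04 (adjusted p = 0.824) and 0.06 (adjusted p = 0.833), and with the description's column 0.08 and 0.10, so these calls rested on that library. They were also lost without A10-FMT replicate 1 (adjusted p = 0.0797) and without A100-FMT replicate 1 or 3 (adjusted p = 0.0597 and 0.0604), respectively. The interaction for A10-FMT against Sa was -0.71 (SE 0.20, limma adjusted p = 0.0151) and, without Sa replicate 3 of set 1, -0.28 (adjusted p = 0.0864). In set 2 all FMT libraries (53.48 to 64.68 FPKM) were below all Sa libraries (67.46 to 69.24 FPKM), but the changes were small, at -0.21 for Con-FMT (95% confidence interval -0.49 to 0.07) and -0.24 for A10-FMT (95% confidence interval -0.53 to 0.04), and were not called.

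Slc26a6 (PAT-1), an apical exchanger of chloride for bicarbonate and oxalate, was called in no comparison. It ran from 4.53 FPKM in Con-FMT replicate 1 to 8.94 FPKM in A10-FMT replicate 2, both of set 1. With all libraries, its largest log2 change among the tests between groups of a set was -0.35 for Con-FMT against Sa of set 1 (95% confidence interval -0.69 to -0.01, adjusted p = 0.102). It was -0.205 without Sa replicate 3 (adjusted p = 0.868) and -0.12 with the description's column, and then the largest was that of A10-FMT against Con-FMT of set 1 (0.34, adjusted p = 0.112 with all libraries). In set 2 its group means lay between 5.70 ± 0.816 FPKM in A10-FMT and 6.66 ± 0.193 FPKM in Sa (SD, n = 3 each).

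Car4 encodes a carbonic anhydrase anchored to the outer face of the brush border, where it interconverts carbon dioxide and bicarbonate. Sa was the highest group by mean in both sets. The Sa libraries of set 1 had 143.92 and 136.28 FPKM and the A100-FMT libraries 98.5, 111.47 and 102.52 FPKM, with no overlap (log2 change -0.42, SE 0.16, limma adjusted p = 0.0429). This call was lost in 14 of 32 alternatives, among them without Sa replicate 3 (log2 change -0.47, adjusted p = 0.337), Sa replicate 1 or any A100-FMT replicate of set 1, with log2 changes between -0.47 and -0.28 over all alternatives (-0.41 with the description's column, adjusted p = 0.106). In set 2 the Sa libraries had 100.34, 154.25 and 148.61 FPKM and the A10-FMT libraries 84.46, 103.03 and 97.6 FPKM, and the log2 change was -0.47 (95% confidence interval -0.77 to -0.18, adjusted p = 0.132). A100-FMT of set 2 had 94.5 to 97.1 FPKM, a log2 change of -0.45 against Sa as a description. The values of Car4 in A10-FMT were lower in set 2 than in set 1 (log2 change -0.38, limma adjusted p = 0.0448), a call kept in 16 of 32 alternatives and lost, among others, without A10-FMT replicate 1 or 3 of set 1 or any A10-FMT replicate of set 2.

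Cftr, the apical chloride channel that is mutated in cystic fibrosis, and Slc12a2 (NKCC1), the basolateral cotransporter that loads the cell with sodium, potassium and chloride, together carry chloride secretion. Cftr was called higher in Con-FMT than in Sa of set 1 (log2 change 0.52, SE 0.18, limma adjusted p = 0.0481; 26.9% of all genes called, and 0.397% with the description's column), the only member called in that comparison. The Con-FMT libraries had 29.92, 27.24 and 32.28 FPKM and the Sa libraries 30.29 and 13.79 FPKM, so 1 of 3 Con-FMT libraries was above both Sa libraries. Without Sa replicate 3 (13.79 FPKM) the change was -0.03 (adjusted p = 0.972), and with the description's column (30.47 FPKM) it was also -0.03. Leaving out Sa replicate 1 instead gave 1.06, and the call was lost in 25 further alternatives with the same direction. With the description's column A10-FMT was called lower than Sa (log2 change -0.34, adjusted p = 0.00444), which was not so with the title's column (0.21, adjusted p = 0.4). The other 22 libraries had 22.48 to 34.84 FPKM of Cftr. In set 2 the group means were 32.1 ± 2.30 FPKM in Sa, 29.5 ± 0.806 FPKM in Con-FMT, 32.3 ± 2.24 FPKM in A10-FMT and 29.6 ± 1.17 FPKM in A100-FMT (SD, n = 3 each), and no change was called.

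Slc12a2 fell after A10-FMT relative to Con-FMT in set 1. The A10-FMT libraries had 46.73, 32.44 and 32.21 FPKM and the Con-FMT libraries 49.58, 58.62 and 58.78 FPKM, with no overlap (log2 change -0.59, SE 0.19, limma adjusted p = 0.0375), a call lost in 8 of 32 alternatives, among them without any Con-FMT replicate of set 1 or A10-FMT replicate 2 or 3. In set 2 the groups overlapped, with 49.52 to 68.25 FPKM in A10-FMT and 52.63 to 65.42 FPKM in Con-FMT (log2 change -0.01, 95% confidence interval -0.41 to 0.38). The difference between the sets was 0.57 and did not pass (adjusted p = 0.13). Slc12a2 was higher in A10-FMT of set 2 than of set 1 by 0.63 (SE 0.19, limma adjusted p = 0.0161), a call lost without A10-FMT replicate 2 or 3 of set 1 or replicate 2 of set 2. As with Cftr, Sa replicate 3 of set 1 held the lowest value of all libraries (28.01 FPKM, against 52.99 FPKM in Sa replicate 1). A10-FMT against Sa of set 1 was -0.08 with it (adjusted p = 0.801) and -0.50 with the description's column, where it was called (adjusted p = 0.0202).

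Atp1b1 encodes the β1 subunit of the sodium-potassium pump, which brings the catalytic subunit to the basolateral membrane. It was called higher in A10-FMT than in Sa of set 1, where the A10-FMT libraries had 586.87, 593.41 and 577.86 FPKM and the Sa libraries 563.8 and 385.05 FPKM (log2 change 0.33, SE 0.10, limma adjusted p = 0.0212). The change was 0.06 when Sa replicate 3 was left out (adjusted p = 0.643) and 0.13 with the description's column (adjusted p = 0.083). In set 2 the A10-FMT libraries had 457.86, 480.64 and 492.12 FPKM and the Sa libraries 572.16, 611.13 and 595.63 FPKM, and all of A10-FMT was below all of Sa (log2 change -0.31, 95% confidence interval -0.50 to -0.12), but the change was not called (adjusted p = 0.129). The interaction for Atp1b1 was -0.64 (SE 0.14, limma adjusted p = 0.00267), kept in 32 of 32 alternatives and -0.37 without Sa replicate 3 of set 1 (adjusted p = 0.00678). Against Con-FMT the interaction was -0.40 (limma adjusted p = 0.0346), a call lost in 10 of 32 alternatives, among them without Con-FMT replicate 2 or 3 or any A10-FMT replicate of set 1, or Con-FMT replicate 2 or A10-FMT replicate 1 or 2 of set 2. A100-FMT of set 2 had 465 to 476 FPKM of Atp1b1, within the range of A10-FMT.

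**Figure D3:**
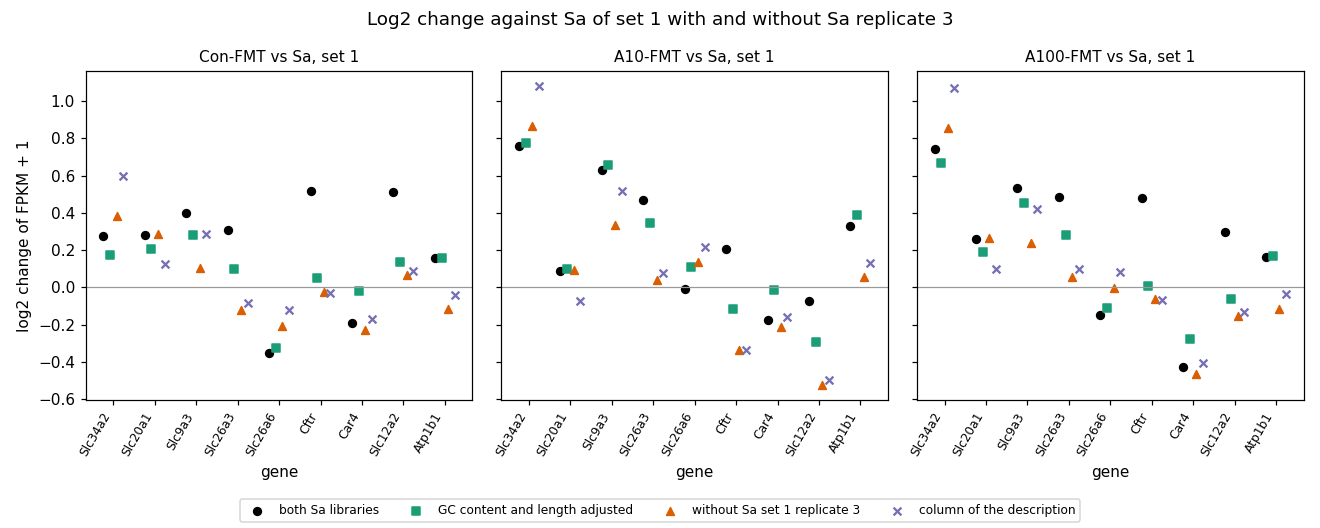
Log2 change of FPKM + 1 of each of the 9 genes (x axis) for Con-FMT, A10-FMT and A100-FMT against Sa of set 1 (panels), with both Sa libraries (circles), after adjustment for GC content and length (squares), without Sa replicate 3 (triangles) and with the description's column in its place (crosses). Slc34a2 stays between 0.67 and 1.08 for A10-FMT and A100-FMT, while Slc26a3, Cftr and Atp1b1 lie below 0 without replicate 3 for Con-FMT (-0.12, -0.03 and -0.12).

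Counted over the members, 1 of 9 was called for Con-FMT against Sa of set 1, 4 for A10-FMT (all higher) and 4 for A100-FMT (3 higher, Car4 lower), where 26.9%, 32% and 35.2% of all genes were called. Ranges did not overlap for 3, 4 and 3 members, against 32.3%, 37.4% and 39.8% of all genes. The 3 comparisons share the Sa libraries. The 4 members named higher for A10-FMT were called with both Sa libraries. Without Sa replicate 3, their changes were 0.87 for Slc34a2, 0.33 for Slc9a3, 0.04 for Slc26a3 and 0.06 for Atp1b1. That fit leaves 1 Sa library of set 1, so only the sizes are given here. With the description's column, A10-FMT was called higher for Slc34a2 and Slc9a3 and lower for Cftr and Slc12a2. Con-FMT and A100-FMT were then called for Slc34a2 only, both higher. Of all genes, that column gave calls for 0.397% (Con-FMT), 33.8% (A10-FMT) and 8.51% (A100-FMT). Between FMT groups of set 1, Slc34a2 and Slc12a2 were called for A10-FMT against Con-FMT (16.7% of all genes called). Slc34a2 was called for A100-FMT against Con-FMT (0.406% of all genes called). In set 2, Slc34a2 was called for A10-FMT against Con-FMT (0.379% of all genes called). Against Sa of set 2, none of the 8 members other than Slc34a2 was called by limma for Con-FMT (0.0353% of all genes called) or for A10-FMT (0.423% called). At an unadjusted p below 0.05 there were 0 for Con-FMT and 2 for A10-FMT (Car4 and Atp1b1), beside 651 and 1627 of all 11337 genes. For A100-FMT of set 2, none of 8 tested members was called against Con-FMT (0% of all genes called) or against A10-FMT (0.00882% called). At an unadjusted p below 0.05 there were 2 and 1 members, beside 1270 and 808 of all 11337 genes. For A100-FMT against Sa of set 2, which chose the list, 0.0353% of all genes were called and nothing is read from the members.

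No member was called as a mean over both sets. Slc34a2 was tested here only for A10-FMT against Con-FMT. At an unadjusted p below 0.05 there were 3 of 8 members tested for Con-FMT against Sa, 2 of 8 for A10-FMT against Sa and 1 of 9 for A10-FMT against Con-FMT. Of all 11337 genes, 2659, 2260 and 697 had an unadjusted p below 0.05 in these comparisons. At the adjusted threshold 0.75%, 0.132% and 0% of all genes were called. For A10-FMT against Sa the interaction called Slc9a3, Slc26a3 and Atp1b1 of 8 members tested, where 28.4% of all genes were called. These members were all lower in set 2 relative to Sa than in set 1. For A10-FMT against Con-FMT the interaction called Slc34a2 and Atp1b1 of 9 members tested, where 20.8% of all genes were called. Its medians were -0.23 over the 9 members and 0.13 over all genes. For Con-FMT against Sa the interaction called no member and 0.00882% of all genes. At an unadjusted p below 0.05 there were 2 of 8 members tested and 3893 of all 11337 genes. Between sets, Sa had 3 of 8 tested members higher in set 2 (Slc26a3, Cftr and Atp1b1), where 38.1% of all genes were called. Without Sa replicate 3 of set 1 the log2 changes of these members were only 0.15, 0.08 and 0.07. A10-FMT had Slc12a2 higher and Slc34a2, Car4 and Atp1b1 lower in set 2, where 30.4% of all genes were called. Con-FMT and A100-FMT had none called (0.00882% and 0% of all genes called). At an unadjusted p below 0.05 they had 1 of 9 and 1 of 8 tested, beside 674 and 1641 of all 11337 genes.

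The other genes of ion transport were taken from a list of transporters, channels, pump subunits and regulators, of which 43 besides the members were tested. A10-FMT against Sa of set 1 called 9 higher and 6 lower, and A10-FMT against Con-FMT 7 higher and 5 lower. Con-FMT against Sa called 8 higher and none lower, and A100-FMT against Sa 7 higher and 2 lower. Of all genes, 32%, 16.7%, 26.9% and 35.2% were called in these comparisons, in this order. The median log2 change of the list was between -0.02 and 0.06 in these comparisons, beside -0.08 to 0.06 over all genes. A10-FMT against Sa called 5 higher and 1 lower when Sa replicate 3 of set 1 was left out, and Con-FMT and A100-FMT against Sa none. The largest called change for A10-FMT against Sa of set 1 was that of Slc4a7 (NBCn1), a sodium-bicarbonate cotransporter, which had 6.19 and 2.65 FPKM in Sa and 11.13, 10.22 and 8.4 FPKM in A10-FMT (log2 change 1.08, SE 0.22, limma adjusted p = 0.00222). It was 0.59 when Sa replicate 3 was left out (adjusted p = 0.0814). With the description's column the change of Slc4a7 was 0.615 (limma adjusted p = 0.00711). In set 2, 1 gene of the list was called for A10-FMT against Sa (Pdzk1, lower), where 0.423% of all genes were called. None was called in the other comparisons between groups of set 2. For the interaction of A10-FMT against Sa, 28.4% of all genes were called. The interaction for A10-FMT against Sa called 6 higher and 11 lower of the 43, and 4 higher and 9 lower without Sa replicate 3 of set 1.

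Other genes with the largest called changes in the list had diverse roles. Slc26a2, a sulfate transporter, averaged 17.1 FPKM in Con-FMT and 10.3 FPKM in Sa of set 1 (log2 change 0.81, limma adjusted p = 0.0322). Prkg2, the cGMP-dependent kinase that acts on Cftr and NHE3, averaged 15.2 FPKM in Con-FMT, 15.8 FPKM in A100-FMT and 10.3 FPKM in Sa of set 1 (log2 changes 0.63 and 0.68, limma adjusted p = 0.0283 and 0.0147). Leaving out Sa replicate 3, these changes were 0.20 for Slc26a2 and 0.06 and 0.12 for Prkg2, and none was called. Car2, the cytosolic carbonic anhydrase, averaged 7.48 FPKM in A10-FMT and 4.09 FPKM in Con-FMT of set 1 (log2 change 0.73, limma adjusted p = 0.00365). Guca2b (uroguanylin), a peptide that raises cGMP and chloride secretion, averaged 541 FPKM in A10-FMT of set 1 and 230 FPKM in A10-FMT of set 2 (log2 change -1.23, limma adjusted p = 0.000106).

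**Figure D4:**
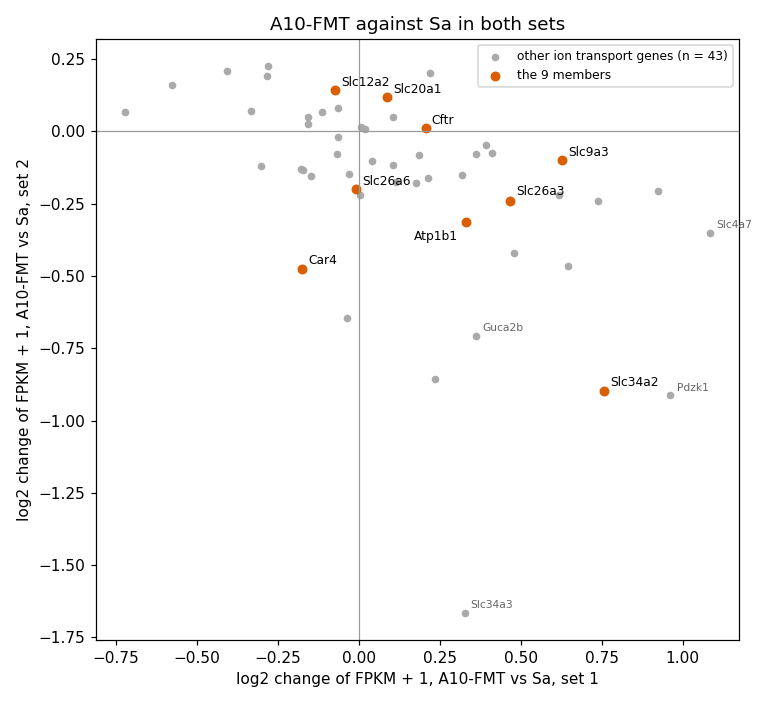
Log2 change of FPKM + 1 for A10-FMT against Sa in set 1 (x axis) and in set 2 (y axis) for the 9 members (orange) and the 43 other tested ion transport genes (grey). Each axis uses its own libraries. Slc34a2 (0.76 and -0.90) and Pdzk1 (0.96 and -0.91) lie together at the lower right, and Slc34a3 (0.33 and -1.66) is lowest in set 2 without being called. The value of Slc34a2 in set 2 is a description, since Sa of set 2 was used in choosing it.

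The genes whose log2(FPKM + 1) was most like that of Slc34a2 over the 23 libraries, by Pearson's r, were Tgfbi (0.885), Npc1l1 (0.867), Tom1l2 (0.865), Slc7a9 (0.861) and Atp6v0a1 (0.861). All libraries of a group share their treatment and set, so these values describe group patterns as much as libraries. Within set 1 r was between 0.808 and 0.921, and within set 2 between 0.826 and 0.948. Values that include set 2 are a description, since they use the Sa and A100-FMT libraries that chose Slc34a2. The 5 values of r were between 0.859 and 0.879 when Sa replicate 3 of set 1 was left out. Npc1l1 takes up cholesterol and Slc7a9 is part of an amino acid transporter, both at the brush border. Slc7a9 averaged 99.5 FPKM in Sa and 127 FPKM in A10-FMT of set 1, and 119 FPKM and 87.9 FPKM in set 2, as a description, since the gene was chosen for this pattern. Tgfbi, an extracellular matrix protein, averaged 57.0 FPKM and 81.0 FPKM in set 1 and 82.1 FPKM and 55.2 FPKM in set 2, likewise as a description.

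The gene most like each of the other members was Iars2 for Slc20a1 (r 0.79), Tmc5 for Slc9a3 (0.843), Lrrc19 for Slc26a3 (0.956), Fth1 for Slc26a6 (0.804), Trim33 for Cftr (0.976), Rpl26 for Car4 (0.751), Itga2 for Slc12a2 (0.924) and Enpep for Atp1b1 (0.934). Over the 22 libraries other than Sa replicate 3 of set 1, r was 0.855 for Lrrc19 and 0.923 for Trim33. Rpl26 has near-identical copies that can share reads, averaged 319 FPKM in Sa and 3.93 FPKM in A10-FMT of set 2, and had r 0.143 with Car4 within set 1. Enpep, an aminopeptidase of the brush border, had r 0.989 with Atp1b1 within set 2. Among the members themselves, Cftr and Slc12a2 had r 0.819 over all libraries and 0.178 within set 2, and Slc26a3 and Cftr had r 0.731, which was 0.1 without Sa replicate 3 of set 1.

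Marker genes of villus enterocytes differed between A10-FMT and Sa in the direction of Slc34a2 in both sets, but not in every comparison. The 10 enterocyte markers summed to 6240 to 7558 FPKM in Sa and 11186 to 13849 FPKM in A10-FMT of set 1, and to 7613 to 8871 FPKM in Sa and 4891 to 6417 FPKM in A10-FMT of set 2. Con-FMT had 6985 to 8115 FPKM and A100-FMT 8401 to 10190 FPKM in set 1, and in set 2 Con-FMT had 7548 to 9366 FPKM and A100-FMT 7304 to 8166 FPKM. A100-FMT of set 1 was thus below A10-FMT for these markers, while the ranges of these groups overlapped for Slc34a2. Con-FMT of set 2 overlapped Sa for the markers and not for Slc34a2. The latter is only a description, since Sa of set 2 was used in choosing Slc34a2. Of the 10, A10-FMT against Sa called 8 higher in set 1 (32% of all genes called) and 1 lower in set 2 (0.423%). The interaction called 9 lower (28.4%). Without Sa replicate 3 of set 1 these were 6 higher in set 1 and 7 lower for the interaction. Vil1 had 660.31 and 656.63 FPKM in Sa and 853.91, 798.16 and 913.77 FPKM in A10-FMT of set 1, and 687.84, 739.97 and 707.02 FPKM in Sa and 626.14, 593.97 and 607.04 FPKM in A10-FMT of set 2. The A10-FMT libraries were thus above Sa in set 1 and below it in set 2, as for Slc34a2, where set 2 is given as a description.

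Marker lists for regions of the small intestine also differed between A10-FMT and Sa. Of all genes, 32% were called for A10-FMT against Sa in set 1, 0.423% in set 2 and 28.4% for the interaction. Distal markers, among them Slc10a2 and Slc51a of bile acid uptake in the ileum, summed to 975 to 1057 FPKM in Sa and 1344 to 1712 FPKM in A10-FMT of set 1, and to 1104 to 1569 FPKM in Sa and 628 to 1073 FPKM in A10-FMT of set 2. Of 5 distal markers tested, 2 were called higher in set 1 (32% of all genes called) and the interaction called all 5 lower (28.4%). With the description's column 4 distal markers were called higher in set 1 (33.8% of all genes called). Proximal markers summed to 1456 to 2201 FPKM and 3061 to 4054 FPKM in set 1, and to 2143 to 2283 FPKM and 1177 to 1828 FPKM in set 2, in Sa and A10-FMT respectively, with 4 higher and 1 lower of 8 called in set 1 and 1 higher and 6 lower for the interaction. Without Sa replicate 3 of set 1, none of the distal and 2 of the proximal markers were called higher in set 1. Crypt proliferation markers went the other way, with 568 to 623 FPKM in A10-FMT of set 1, 809 to 890 FPKM in A10-FMT of set 2 and 648 to 779 FPKM in Sa of set 2. In Sa of set 1 they were at 840 FPKM in replicate 1 and 568 FPKM in replicate 3, a wider gap than between the libraries of any other group. Of 8 crypt markers, 3 were called lower for A10-FMT against Sa in set 1 (32% of all genes called) and 4 higher for the interaction (28.4%). With the description's column these were 7 lower and 7 higher. Paneth cell markers summed to 13483 to 15425 FPKM in Sa, 9141 to 14890 FPKM in A10-FMT and 5245 to 7928 FPKM in A100-FMT of set 1, and to 4624 to 7389 FPKM in Sa, 9087 to 13364 FPKM in A10-FMT and 6638 to 8574 FPKM in A100-FMT of set 2. Of 5, A100-FMT against Sa called 4 lower in set 1 (none without Sa replicate 3) and A10-FMT against Sa 3 higher in set 2. Of all genes, 35.2% were called for A100-FMT against Sa in set 1 and 0.423% for A10-FMT against Sa in set 2. With the description's column A100-FMT against Sa of set 1 called 4 Paneth cell markers lower (8.51% of all genes called). Goblet cell markers had 4051 to 6146 FPKM in Sa and 3803 to 5223 FPKM in A10-FMT over both sets, colon markers at most 8.14 FPKM and erythroid markers at most 40.4 FPKM in any library. The part of these differences in the values of the members was not tested.

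**Figure D5:**
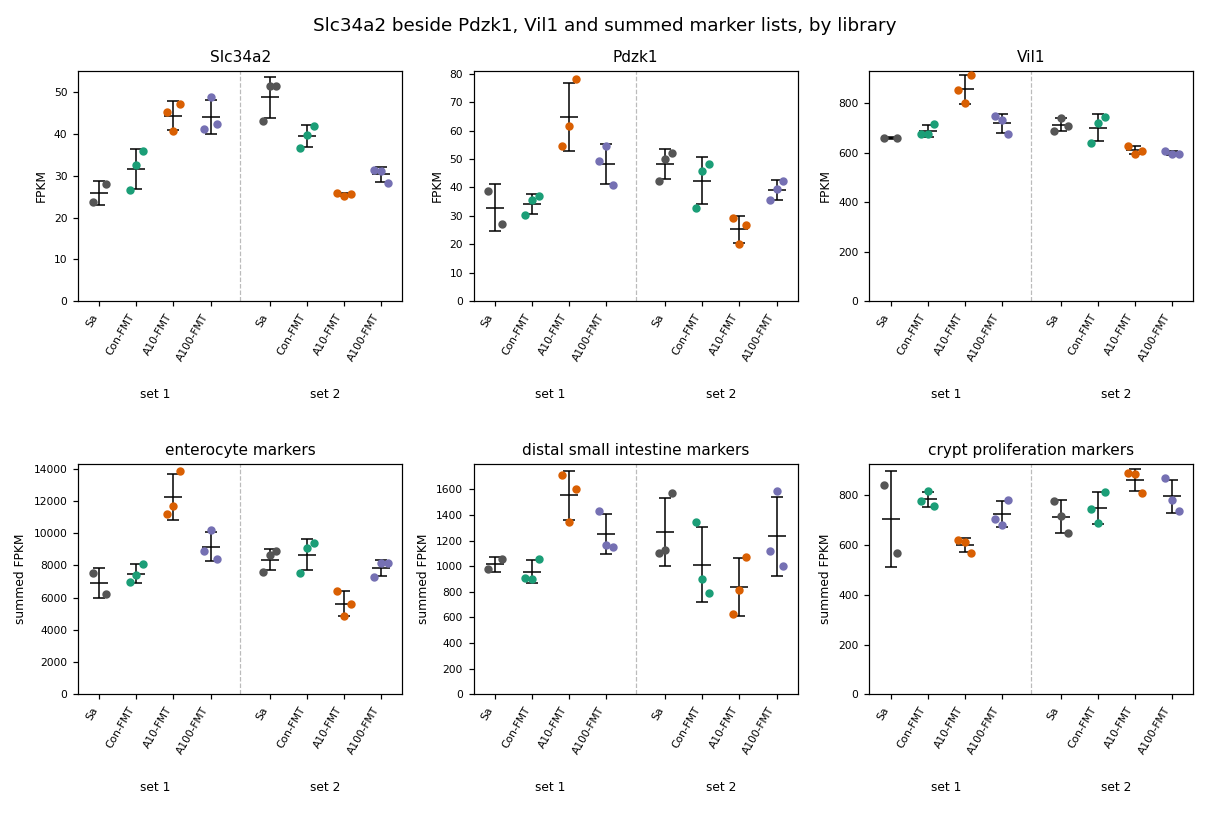
FPKM of Slc34a2, Pdzk1 and Vil1 and summed FPKM of the enterocyte, distal small intestine and crypt proliferation markers (y axes, linear, from 0) by group and set (x axis). Points are libraries, bars are means and error bars 1 SD (n = 3, or n = 2 for Sa of set 1). By mean, A10-FMT is the highest group of set 1 and the lowest of set 2 for Slc34a2, Pdzk1, the enterocyte markers and the distal markers, and the lowest of set 1 and the highest of set 2 for crypt proliferation, while the lowest Vil1 group of set 2 is A100-FMT. For Slc34a2 the means of A10-FMT and A100-FMT in set 1 are close (44.4 and 44.1 FPKM) and the ranges overlap. Its order in set 2 is a description.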

How the data were processed

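Small intestine RNA was isolated with TRIzol and sequenced on an Illumina HiSeq by the authors, whose methods name RPKM as the unit and DEGseq as the test, which was not repeated here. The deposited values are FPKM by their column names, on build mm10 per the submitters' processing notes. The aligner and counter are not given in the sources used here. Groups came from sample names, in which IMC, IMA10 and IMA100 were read as Con-FMT, A10-FMT and A100-FMT. Values were analysed as log2(FPKM + 1), a scale that understates changes of low genes, with Python 3.11.15, pandas 2.3.3, matplotlib 3.10.9, R 4.3.3 and limma 3.58.1 (lmFit with 1 mean per group over all 23 libraries, contrasts, eBayes with trend, Benjamini-Hochberg adjustment per comparison, threshold 0.05, mean of at least 1 FPKM). Depth is unknown, so no count model was fitted. The fit was tested on simulated data of 11337 genes, of which 200 were changed by 1 on the log2 scale. It recovered 91.3% of these for A10-FMT against Sa in set 1 and 93.6% in set 2. On average 5.08% and 3.99% of the calls were false. The simulated noise was normal, independent and equal in spread across the groups. The GC trend of Sa replicate 3 of set 1 and smaller changes were thus not simulated.

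Slc34a2 was left out of tests with A100-FMT or Sa of set 2, whose values chose it. Members and gene lists were chosen with earlier results of these data known. Genes named by rule are the 9 members, the 5 genes most like Slc34a2 and the 1 most like each other member, the 2 called genes of the ion list with the largest change per comparison, and markers. Outside this rule, Slc20a2 and Slc34a3 were named after their values were seen. Alternatives were a pseudocount of 0.1, a mean of at least 5 FPKM, no filter, quantile normalization, trimmed-mean scaling, a replicate block, the description's column, adjustment for GC content and length, a fit on the compared groups alone and leaving out each library. Running the lists and the named genes outside the members without Sa replicate 3 of set 1, or with the description's column, was chosen after seeing the data. Some genes that this rule names are not reported here.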

Additional observations from a re-analysis of the deposited data

Results flagged for a closer look

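For 4 members the change after A10-FMT differed between the sets by the test of the interaction in limma (set 2 minus set 1, log2 scale). For Slc34a2 it was -1.09 against Con-FMT. For Slc9a3 it was -0.73 against Sa, for Slc26a3 -0.71 against Sa, and for Atp1b1 -0.64 against Sa and -0.40 against Con-FMT. Without Sa replicate 3 of set 1 the values against Sa were -0.43 for Slc9a3, -0.28 for Slc26a3 and -0.37 for Atp1b1. The call was lost in 8 of 32 alternatives for Slc9a3, 2 for Slc26a3 and 10 for Atp1b1 against Con-FMT, and in 0 for the others. Of all genes, 28.4% differed in this way against Sa and 20.8% against Con-FMT. Groups had at most 3 libraries, so no library was tested as an outlier within its group.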

How the results depend on the processing

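The 9 calls of members against Sa in set 1 became 0 in a fit on the compared groups alone. The 0 calls for Con-FMT and A10-FMT against Sa in set 2 became 2 with the description's column, 1 with GC content and length adjusted and 2 with the compared groups alone. The 3 calls between FMT groups of set 1 became 1 with no filter, 1 with trimmed-mean scaling and 7 with the description's column. The 1 call between FMT groups of set 2 became 0 with no filter, 4 with the description's column, 2 with GC content and length adjusted and 0 with the compared groups alone. The 5 interaction calls became 3 with no filter and 10 with the description's column. Cftr in Con-FMT against Sa of set 1 reversed to -0.03 with the description's column and to -0.025 without Sa replicate 3, while without Sa replicate 1 it was 1.06.

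Leaving out 1 library at a time gave 2 to 17 calls against Sa in set 1 (17 without Sa replicate 1, 2 without Sa replicate 3, 5 without A100-FMT replicate 1) and 0 to 1 in set 2 (1 without either Sa library of set 1 or Sa replicate 1 of set 2). Between FMT groups it gave 1 to 7 in set 1 (7 without either Sa library, 1 without Con-FMT replicate 1 or 2 or A10-FMT replicate 2 or 3) and 0 to 4 in set 2 (4 without either Sa library of set 1, 0 without Con-FMT replicate 2 or 3 or A10-FMT replicate 2 or 3). Averages over the sets gave 0 to 10 calls (10 when Sa replicate 1 of set 1 was left out), with 3 to 13 interactions (13 without that library, 3 without A10-FMT replicate 1 or 2 of either set) and 4 to 11 between sets (11 without that library, 4 without A10-FMT replicate 2 of set 2). Where 1 Sa library of set 1 is left, it is assumed to vary like the other groups, and it adds nothing to the estimate of the spread. Otherwise the cause was not tested.

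Replicate numbers were not taken to pair the samples. The deviations of same-numbered samples had r above 0.1 in 4 of 15 pairs in set 1 and 6 of 18 in set 2. Among pairs with other numbers this was so in 7 of 30 and 11 of 36. With a replicate block the calls between FMT groups became 1 in set 1 and 0 in set 2. Over all calls of single members, 640 of 800 alternative values kept the call and 158 lost it with the same direction. Many of these alternatives left out a library outside the compared groups, which leaves the log2 change as it was. The share of kept calls therefore says little about leaving out a compared library. FPKM values carry no read number, so precision by depth could not be given.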
